A study of Arabidopsis thaliana with 12 samples.

Results

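JAZ (jasmonate ZIM-domain) proteins are the repressors of jasmonate signalling in plants, and the genes described here are the 10 loci JAZ1 to JAZ10 of Arabidopsis thaliana. They were chosen by locus identifier from 33602 counted genes, and all 10 passed the filter on low counts and were among the 20379 genes tested. JAZ7 and JAZ8 passed it only with the libraries of the mutant described below, where their counts were higher. Transcript levels came from mRNA sequencing of 12 libraries of whole seedlings, in 4 groups of 3. The wild type Col-0 was compared with ixr1-1, an isoxaben-resistant mutant in the Col-0 ecotype with a point mutation in CESA3, a catalytic subunit of the cellulose synthase complex. Seedlings 6 days old, raised in shaken flasks with days of 16 h light and 8 h dark, were moved for 1 h to fresh medium holding either 600 nM isoxaben, an inhibitor of cellulose synthesis, or DMSO, the solvent that all 4 groups received. The plants of a flask were split between both treatments. Only a single mutant allele was sampled, and transcript levels cannot check the labels for a line that differs by a base change. The labels do not state whether the libraries of a group stem from separate cultures. The spread behind each p-value is therefore that between 3 libraries and may be technical.

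Jasmonate is a hormone of wounding, defence and growth restraint. Without it, JAZ proteins bind MYC2 and related transcription factors and recruit the adaptor NINJA and the co-repressor TOPLESS. The conjugate jasmonoyl-isoleucine makes the F-box protein COI1 bind JAZ proteins, which leads to their degradation and frees the MYC factors. Many JAZ genes are themselves targets of MYC factors, so that their transcripts rise when the pathway is active and the repressors are made again. JAZ7 and JAZ8 carry EAR motifs that contact TOPLESS directly, JAZ8 lacks the degron that COI1 needs, and JAZ10 gives splice forms that resist degradation, which counts per gene do not separate.

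MYC factors bind the G-box CACGTG and, less tightly, the related AACGTG. The 250 bases before the annotated gene start were read for all 10 genes from the RefSeq annotation of TAIR10.1 and searched on both strands. The promoters with CACGTG are shown because they belong both to genes whose level differed between the genotypes (JAZ7, JAZ8) and to genes for which no difference passed the test (JAZ2, JAZ3). Capitals mark CACGTG, and AACGTG or its reverse complement, and each line runs 5′ to 3′ on the strand of the gene.
JAZ7, chr2:14572780-14573029, plus strand: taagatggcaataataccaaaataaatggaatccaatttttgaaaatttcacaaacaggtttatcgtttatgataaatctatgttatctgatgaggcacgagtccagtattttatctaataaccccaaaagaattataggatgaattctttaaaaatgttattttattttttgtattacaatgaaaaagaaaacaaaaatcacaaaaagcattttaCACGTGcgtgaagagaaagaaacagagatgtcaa
JAZ8, chr1:10596102-10596351, plus strand: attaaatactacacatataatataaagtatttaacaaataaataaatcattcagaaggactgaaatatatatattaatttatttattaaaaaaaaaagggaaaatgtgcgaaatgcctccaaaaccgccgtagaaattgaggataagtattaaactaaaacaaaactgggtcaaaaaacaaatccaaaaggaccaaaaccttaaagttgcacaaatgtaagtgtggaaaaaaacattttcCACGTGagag
JAZ2, chr1:28150447-28150696, minus strand: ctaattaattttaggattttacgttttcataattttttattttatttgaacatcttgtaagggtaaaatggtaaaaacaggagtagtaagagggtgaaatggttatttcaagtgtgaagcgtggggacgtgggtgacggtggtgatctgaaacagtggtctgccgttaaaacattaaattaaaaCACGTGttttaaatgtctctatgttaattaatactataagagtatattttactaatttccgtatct
JAZ3, chr3:6119457-6119706, plus strand: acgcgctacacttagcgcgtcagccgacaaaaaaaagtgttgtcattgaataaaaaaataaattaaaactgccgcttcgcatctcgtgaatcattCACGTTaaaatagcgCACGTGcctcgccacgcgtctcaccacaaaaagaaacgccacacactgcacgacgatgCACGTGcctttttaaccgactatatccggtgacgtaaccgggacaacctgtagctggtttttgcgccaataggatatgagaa
CACGTG lay between positions -34 and -29 in JAZ7, where position -1 is the last base before the start. It lay between -10 and -5 in JAZ8, between -66 and -61 in JAZ2, and at -140 to -135 and -82 to -77 in JAZ3. AACGTG was found in JAZ3, JAZ5 and JAZ6. In all, 4 of the 10 promoters held CACGTG, against 6.49% of the 27443 promoters of protein-coding genes. AACGTG was in 3 of 10 against 7.54%, and at least 1 of both in 6 of 10 against 13.3%. The wider form CANNTG, which every CACGTG also matches, was in 7 of 10 against 55.3%. TTGACC, a form of the site bound by WRKY factors, was in 1 of 10, JAZ8, against 12.2%. The form TTGACT was not searched, so this is no full count of WRKY sites. JAZ1, JAZ4, JAZ9 and JAZ10 held neither CACGTG nor AACGTG in these windows. The windows end at the RefSeq starts, which lie upstream of the starts used for the counts (for JAZ1, 6621777 against 6622094). Bases between both starts were not searched, and positions would change with the other start. A match is a string of letters and no measurement of binding.

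Libraries held 8521491 to 20658035 counts, of which the 10 JAZ genes took 1917 to 5528 counts, or 0.0155 to 0.0311% of a library. Levels are CPM, the counts of a gene per 1e6 counts of its library after TMM scaling. Root markers (10 genes such as SCR, PIN2 and COBL9) summed to 167 to 190 CPM over the 12 libraries and markers of green tissue (8 genes such as RBCS1A and CAB1) to 26684 to 36862 CPM, so the libraries held both organs. Of the green tissue markers, 3 of 8 were lower in ixr1-1 than in Col-0 in DMSO and 5 of 8 in isoxaben. Over all tested genes, 7.42% and 5.85% were called lower. Root markers passed the test in DMSO in 0 of 10 cases, beside 17.2% of all tested genes. In isoxaben 1 of 10 was higher in ixr1-1, the root hair gene COBL9, which was also the 1 root marker that fell with isoxaben in Col-0. It was at 11.7 to 12.8 CPM in Col-0 DMSO, 6.08 to 7.34 in Col-0 isoxaben, 7.82 to 11.3 in ixr1-1 DMSO and 8.00 to 13.1 in ixr1-1 isoxaben. Transcripts of 11 seed storage and oil body genes stood apart by genotype. They summed to 1.02 to 3.41 CPM in the 6 Col-0 libraries, to 219, 716 and 606 CPM in ixr1-1 DMSO and to 112, 428 and 649 CPM in ixr1-1 isoxaben. In bulk RNA, fewer cells of a type cannot be told apart from less RNA per cell.

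Divided by exon length, so that genes can be compared, the levels of the 10 genes in Col-0 DMSO fell into a wide order. In the annotation of the counts JAZ1 is 1 exon of 1527 bases, its whole span, while JAZ2 has 5 exons and 1280 bases. Any intron counted in the JAZ1 length lowers its value per kb, so its rank is less certain. JAZ6 was highest at 35.6 ± 0.43 CPM per kb of exon (SD, n = 3), followed by JAZ9 at 29.2 ± 3.38, JAZ1 at 21.9 ± 3.05, JAZ2 at 20.8 ± 1.86 and JAZ3 at 10.9 ± 1.60. A lower set followed, with JAZ5 at 4.28 ± 1.83, JAZ10 at 3.68 ± 0.69 and JAZ4 at 2.11 ± 0.53 CPM per kb. JAZ7 at 0.537 ± 0.160 and JAZ8 at 0.193 ± 0.147 CPM per kb closed the order. Among neighbours in this order, JAZ1 and JAZ2 overlapped between libraries, as did JAZ5 and JAZ10, and no other neighbours did. In ixr1-1 DMSO the order was JAZ6 (58.0 CPM per kb), JAZ1 (39.2), JAZ9 (31.2), JAZ2 (23.4), JAZ3 (10.5), JAZ5 (8.43), JAZ10 (8.10), JAZ4 (3.66), JAZ7 (2.26) and JAZ8 (1.44). There JAZ1 overlapped JAZ9, JAZ5 overlapped JAZ10, and JAZ7 overlapped JAZ8. JAZ1 also ranked above JAZ9 in both isoxaben groups, without overlap in Col-0 isoxaben (33.3 against 24.2 CPM per kb) and with overlap in ixr1-1 isoxaben (39.0 against 36.0).

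**Figure D1:**
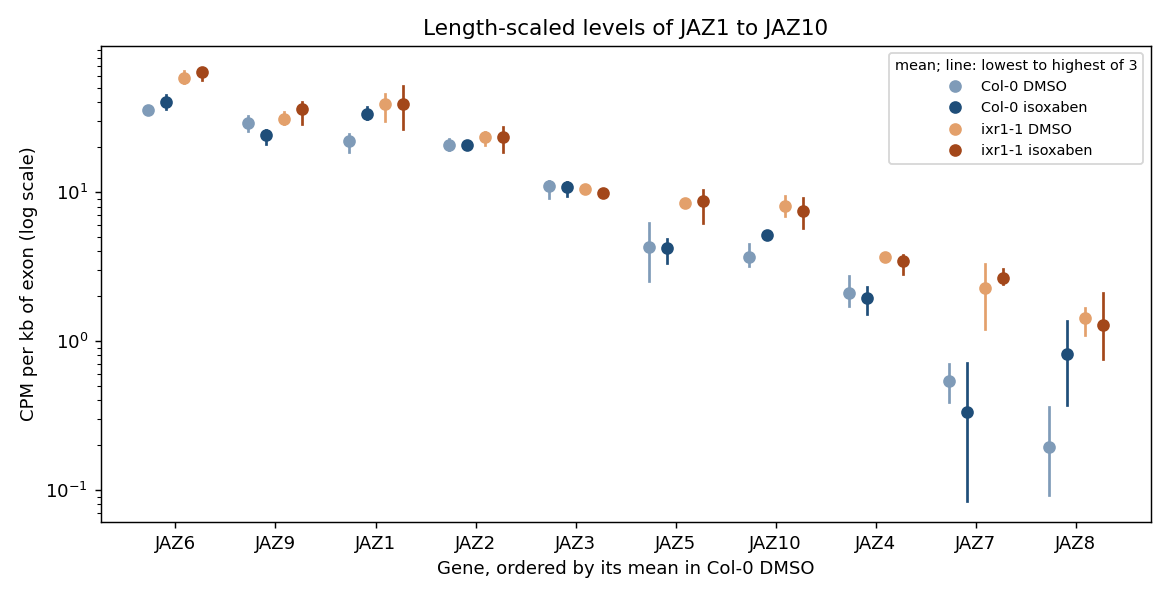
Level of each JAZ gene per kb of exon (CPM per kb, log scale) in the 4 groups, ordered by the mean in Col-0 DMSO; points are means of 3 libraries and lines run from the lowest to the highest library. JAZ6 is highest in every group, from 35.6 CPM per kb in Col-0 DMSO to 63.7 in ixr1-1 isoxaben, and JAZ7 and JAZ8 are the lowest pair throughout.

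The comparison of ixr1-1 with Col-0 in DMSO asks which members differ between the genotypes without isoxaben. JAZ transcripts were more abundant in the mutant: 7 of 10 members were higher and 0 lower by edgeR's quasi-likelihood test with Benjamini-Hochberg adjustment over all tested genes (threshold 0.05), beside 9.79% of all tested genes called higher, 7.42% called lower and 17.2% called in either direction. The same 7 members had no overlap between the groups, beside 17.6% of all tested genes that were higher without overlap. The 7 genes were JAZ1, JAZ4, JAZ5, JAZ6, JAZ7, JAZ8 and JAZ10, with fold changes from 1.63 for JAZ6 to 6.84 for JAZ8. JAZ7 and JAZ8 reached the test only with the ixr1-1 libraries, where they were high, so their calls are not independent of the filter. Both were also called with no filter on low counts. JAZ2, JAZ3 and JAZ9 did not pass. The median log2 fold change over the members was 0.83, beside -0.00104 over all genes. The summed level of the 10 genes was 158 to 190 CPM in Col-0 DMSO and 224 to 266 CPM in ixr1-1 DMSO.

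The largest fold changes were those of JAZ7 and JAZ8, relatives that repress through their EAR motif. JAZ7 (AT2G34600, chromosome 2, 14573080 to 14573856) was at 0.477, 0.352 and 0.262 CPM in the 3 Col-0 DMSO libraries and at 0.817, 1.53 and 2.24 CPM in ixr1-1 DMSO. Every mutant library lay above every wild-type library, and the mutant libraries spread more widely. JAZ7 was 4.29-fold higher in ixr1-1 (log2 2.10 ± 0.44 SE, edgeR adjusted p = 0.00213). These levels rest on 7, 5 and 5 counts against 7, 32 and 23. JAZ8 (AT1G30135, chromosome 1, 10596492 to 10597239) was at 0.205, 0.0703 and 0.0524 CPM in Col-0 DMSO and at 0.934, 0.621 and 0.876 CPM in ixr1-1 DMSO. The groups did not overlap, and the wild-type libraries held only 3, 1 and 1 counts of the gene, so the size of the difference is loosely fixed. The fitted difference was log2 2.77 ± 0.66 (95% interval 1.40 to 4.15, edgeR adjusted p = 0.00592).

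JAZ10 (AT5G13220, chromosome 5, 4218888 to 4220883), a feedback repressor often used as a reporter of jasmonate activity, was at 5.25, 6.96 and 4.98 CPM in Col-0 DMSO and at 10.7, 14.6 and 12.6 CPM in ixr1-1 DMSO. The groups did not overlap, and the lowest mutant library stood well above the highest wild-type library. The gene was 2.26-fold higher in ixr1-1 (log2 1.18 ± 0.17, edgeR adjusted p = 0.000103). JAZ6 (AT1G72450, chromosome 1, 27274065 to 27276317), the most abundant member per length, was at 44.3, 45.1 and 45.4 CPM in Col-0 DMSO and at 70.0, 67.9 and 81.8 CPM in ixr1-1 DMSO. Its wild-type libraries were nearly level and all mutant libraries were higher. It had the smallest fold change of the 7, at 1.63-fold, and the smallest adjusted p (log2 0.70 ± 0.09, edgeR adjusted p = 2.63e-05).

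JAZ5 (AT1G17380, chromosome 1, 5955488 to 5957212), the close relative of JAZ6, was at 7.02, 4.64 and 2.88 CPM in Col-0 DMSO and at 9.23, 9.69 and 9.74 CPM in ixr1-1 DMSO. Here the wild-type libraries spread widely and the mutant libraries were nearly level, with no overlap. JAZ5 was 2.02-fold higher in ixr1-1 (log2 1.01 ± 0.27, edgeR adjusted p = 0.0235). Its call ended when library 2 of Col-0 DMSO or library 2 or 3 of ixr1-1 DMSO was left out (edgeR adjusted p of 0.0609 to 0.0894). JAZ1 (AT1G19180, chromosome 1, 6622094 to 6623620), a repressor of MYC2 in root growth inhibition by jasmonate, was at 34.3, 37.5 and 28.4 CPM in Col-0 DMSO and at 46.0, 69.1 and 64.6 CPM in ixr1-1 DMSO. Mutant library 1 lay closest to the wild type, and the groups did not overlap. JAZ1 was 1.82-fold higher in ixr1-1 (log2 0.86 ± 0.25, edgeR adjusted p = 0.0422). That call ended under 10 of 21 alternatives. These were no filter on low counts and leaving out any single Col-0 library, library 2 or 3 of ixr1-1 DMSO, or the third ixr1-1 isoxaben library, with an edgeR adjusted p of up to 0.158.

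JAZ4 belongs to the branch of the family that also holds JAZ3 and JAZ9. JAZ4 (AT1G48500, chromosome 1, 17931476 to 17934662), which with JAZ1 restrains the cold-response regulator ICE1, was at 2.73, 4.29 and 2.99 CPM in Col-0 DMSO and at 5.72, 5.49 and 6.13 CPM in ixr1-1 DMSO. The groups did not overlap, and JAZ4 was 1.73-fold higher in ixr1-1 (log2 0.79 ± 0.19, edgeR adjusted p = 0.00580). JAZ3 (AT3G17860, chromosome 3, 6119767 to 6123019), the locus of the dominant jasmonate-insensitive mutant jai3-1, was at 21.5, 21.1 and 16.4 CPM in Col-0 DMSO and at 18.5, 20.0 and 18.4 CPM in ixr1-1 DMSO. The mutant values lay within the range of the wild type (log2 -0.04, 95% interval -0.26 to 0.19). JAZ9 (AT1G70700, chromosome 1, 26654768 to 26657064), which also binds DELLA repressors of gibberellin signalling, was at 36.4, 40.7 and 32.3 CPM in Col-0 DMSO and at 35.6, 42.8 and 38.2 CPM in ixr1-1 DMSO. Its groups overlapped (log2 0.11, 95% interval -0.17 to 0.39). JAZ2 (AT1G74950, chromosome 1, 28148575 to 28150444), known for its role in stomatal guard cells, was at 26.3, 29.1 and 24.4 CPM in Col-0 DMSO and at 26.4, 32.2 and 31.2 CPM in ixr1-1 DMSO, again with overlap (log2 0.19, 95% interval -0.06 to 0.43). For JAZ2, JAZ3 and JAZ9 the edgeR adjusted p lay between 0.311 and 0.866. Whether the genotype difference differs between members was not tested.

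**Figure D2:**
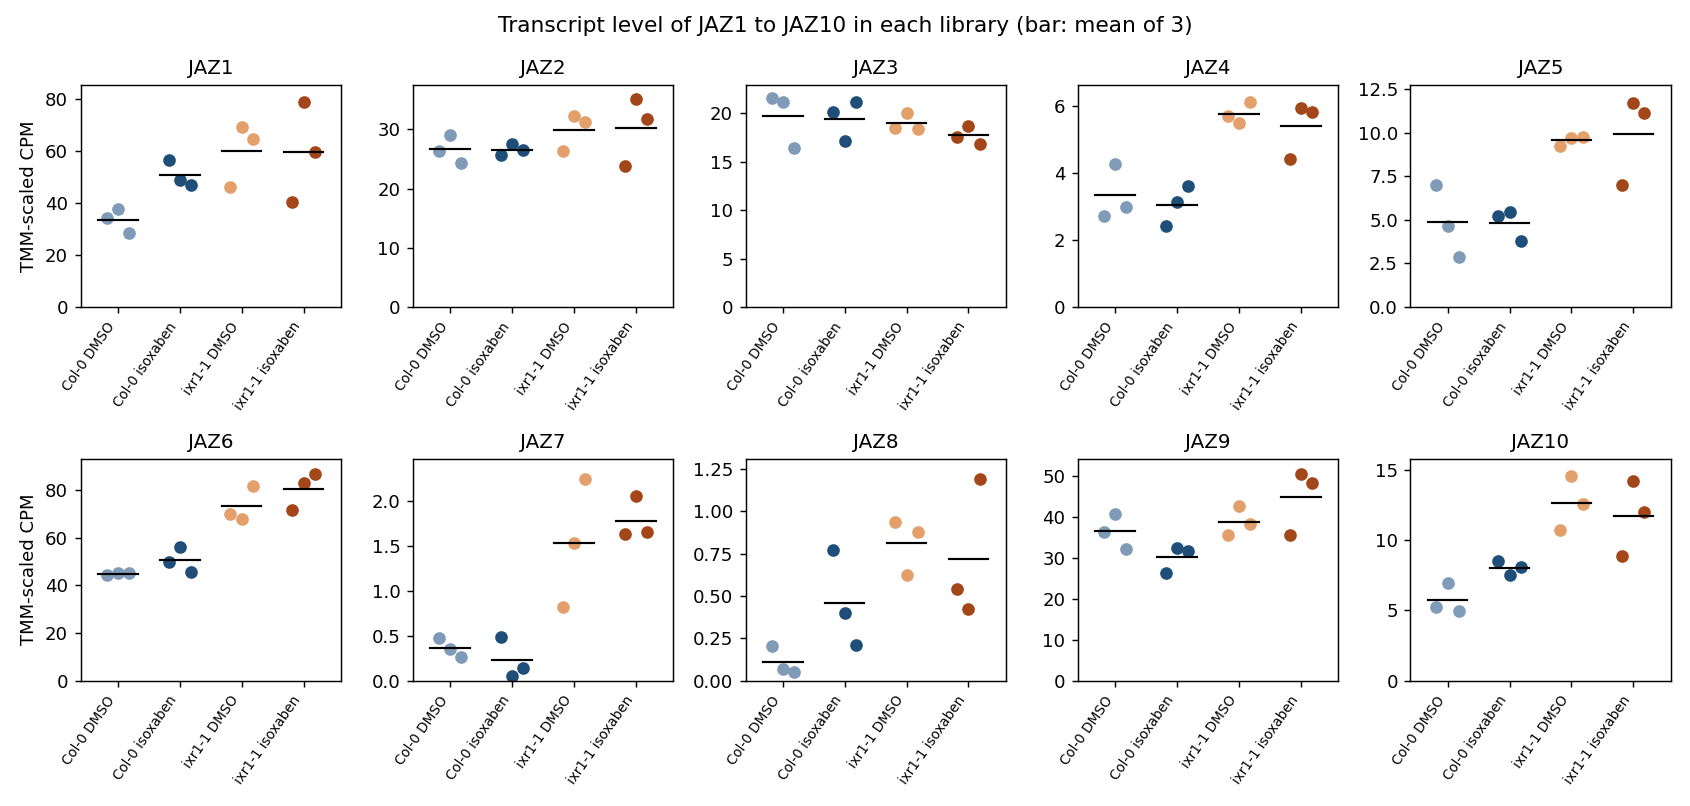
Level of each JAZ gene in each of the 12 libraries (TMM-scaled CPM, each panel with its own axis from 0); points are libraries 1 to 3 from left to right and bars are means of 3. In JAZ6 and JAZ10 the 3 ixr1-1 libraries lie above the 3 Col-0 libraries of the same treatment, whereas in JAZ3 all 4 groups overlap.

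The comparison of the genotypes in isoxaben used the other 6 libraries and gave 6 of 10 members higher in ixr1-1 and 0 lower, beside 6.92% of all tested genes called higher, 5.85% called lower and 12.8% called in either direction. The same 6 members were higher without overlap, beside 15.8% of all tested genes. JAZ4, JAZ5, JAZ6, JAZ7 and JAZ10 were called as in DMSO, JAZ9 was called only here, and JAZ1 and JAZ8 did not pass. In this fit, none of these last 3 passed the test of the difference between the treatments, whose values stand with the interaction. The median log2 fold change over the members was 0.62, beside 0.00348 over all genes. JAZ7 was at 0.483, 0.0573 and 0.139 CPM in Col-0 isoxaben, from 5, 1 and 2 counts, and at 1.63, 2.05 and 1.65 CPM in ixr1-1 isoxaben, from 18, 29 and 25 counts. The mutant libraries were all higher and nearly level (8.95-fold, log2 3.16 ± 0.50, edgeR adjusted p = 0.000387). As in DMSO, the JAZ7 call is not independent of the filter, which the gene passed only with the ixr1-1 libraries. JAZ6 was at 50.0, 56.2 and 45.5 CPM in Col-0 isoxaben and at 71.6, 82.9 and 86.6 CPM in ixr1-1 isoxaben. The groups did not overlap (1.59-fold, log2 0.67 ± 0.09, edgeR adjusted p = 8.9e-05).

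JAZ4 went from 2.41, 3.15 and 3.63 CPM in Col-0 isoxaben to 4.44, 5.95 and 5.82 CPM in ixr1-1 isoxaben, without overlap (1.75-fold, log2 0.81 ± 0.19, edgeR adjusted p = 0.00966). JAZ5 went from 5.21, 5.44 and 3.77 CPM to 6.97, 11.7 and 11.1 CPM, with mutant library 1 nearest to the wild type (2.09-fold, log2 1.06 ± 0.27, edgeR adjusted p = 0.0248). JAZ10 went from 8.50, 7.51 and 8.09 CPM to 8.87, 14.2 and 12.03 CPM, and mutant library 1 lay just above the highest wild-type library (1.48-fold, log2 0.57 ± 0.16, edgeR adjusted p = 0.0293). JAZ9 went from 26.4, 32.4 and 31.7 CPM to 35.7, 50.4 and 48.4 CPM, again without overlap and with library 1 lowest (1.48-fold, log2 0.57 ± 0.13, edgeR adjusted p = 0.0117). Without library 2 of ixr1-1 isoxaben the calls of JAZ5, JAZ9 and JAZ10 ended (edgeR adjusted p of 0.0999, 0.0529 and 0.150). There 3 members remained called, JAZ4, JAZ6 and JAZ7. Over all genes that fit called 1549, against 2602 in the fit with every library. The JAZ5 call also ended without library 3 of ixr1-1 isoxaben or any single Col-0 isoxaben library (0.0547 to 0.0969), and that of JAZ10 without library 3 of ixr1-1 isoxaben or library 2 or 3 of Col-0 isoxaben (0.0802 to 0.117).

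For the members that did not pass in isoxaben, JAZ1 was at 56.7, 48.9 and 47.1 CPM in Col-0 and at 40.2, 78.8 and 59.6 CPM in ixr1-1. The mutant libraries lay on both sides of the wild type (log2 0.24, 95% interval -0.30 to 0.78, edgeR adjusted p = 0.587). JAZ8 was at 0.773, 0.401 and 0.209 CPM in Col-0 and at 0.543, 0.425 and 1.19 CPM in ixr1-1, from 3 to 18 counts, with overlap (log2 0.77, 95% interval -0.29 to 1.83, edgeR adjusted p = 0.357). JAZ2 was at 25.7, 27.5 and 26.6 CPM in Col-0 and at 23.7, 35.1 and 31.8 CPM in ixr1-1, where library 1 was below and the other two above all wild-type libraries (log2 0.19, edgeR adjusted p = 0.321). Without library 1 of ixr1-1 isoxaben JAZ2 passed (log2 0.33 ± 0.10, edgeR adjusted p = 0.0377). JAZ3 was at 20.1, 17.1 and 21.1 CPM in Col-0 and at 17.6, 18.7 and 16.8 CPM in ixr1-1 (log2 -0.13, edgeR adjusted p = 0.494).

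In the wild type, isoxaben was set against DMSO to ask which members respond within 1 h. By edgeR 0 of 10 JAZ genes passed, beside 0.78% of all tested genes, and DESeq2 and limma-voom called 0 as well. An unadjusted p under 0.05 was reached by 3 of 10 members, JAZ1, JAZ8 and JAZ10, beside 6.81% of all tested genes. With no overlap between the groups, 4 members were higher in isoxaben (JAZ1, JAZ6, JAZ8 and JAZ10), beside 6.86% of all tested genes. JAZ1 did not pass in the fit over all 12 libraries (log2 0.61 ± 0.25, 95% interval 0.05 to 1.17, edgeR adjusted p = 0.661) and passed in a fit of the 6 Col-0 libraries alone (log2 0.61 ± 0.10, edgeR adjusted p = 0.00985). Its 3 isoxaben libraries, at 47.1 to 56.7 CPM, lay above its 3 DMSO libraries, at 28.4 to 37.5 CPM. JAZ10 was at 7.51 to 8.50 CPM in isoxaben and at 4.98 to 6.96 CPM in DMSO (log2 0.49 ± 0.18, edgeR adjusted p = 0.409). JAZ8 was at 0.209 to 0.773 CPM in isoxaben and at 0.0524 to 0.205 CPM in DMSO, from 8, 7 and 3 against 3, 1 and 1 counts (log2 1.96 ± 0.73, edgeR adjusted p = 0.463). JAZ6 was at 45.5 to 56.2 CPM against 44.3 to 45.4 CPM (log2 0.17 ± 0.09, edgeR adjusted p = 0.817). For the other 6 members the groups overlapped, with log2 fold changes from -0.86 for JAZ7 to 0.02 for JAZ5. This comparison and that of the genotypes in DMSO share the Col-0 DMSO libraries, so their values are not independent of each other.

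In ixr1-1, isoxaben against DMSO also gave 0 of 10 members by edgeR, beside 0% of all tested genes, with 0 members at an unadjusted p under 0.05 and 0 called by DESeq2 or limma-voom. The log2 fold changes lay between -0.12 for JAZ10 and 0.20 for JAZ9 and JAZ7, and the groups overlapped for every member, beside 4.3% of all tested genes that were higher without overlap and 3.89% that were lower. The widest 95% interval was that of JAZ8 (-1.01 to 0.92) and the narrowest that of JAZ6 (-0.04 to 0.32). The interaction, which tests whether the isoxaben effect differs between the genotypes, gave 0 of 10 members by edgeR, beside 0.314% of all tested genes. DESeq2 and limma-voom called 0 members as well. At an unadjusted p under 0.05 were 3 of 10 members, beside 4.76% of all tested genes. These were JAZ8 (log2 -2.00 ± 0.87, edgeR adjusted p = 0.934), JAZ9 (0.46 ± 0.18, 0.869) and JAZ10 (-0.61 ± 0.23, 0.795). For JAZ1 the interaction was -0.62 ± 0.34 (edgeR adjusted p = 0.99996). In this fit no member was thus shown to differ between the genotypes more in one treatment than in the other. The fit does not pair the treatments. With a block by genotype and number, JAZ1 passed for the interaction (log2 -0.63 ± 0.11, edgeR adjusted p = 0.00710). The labels tie no number to a flask.

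**Figure D3:**
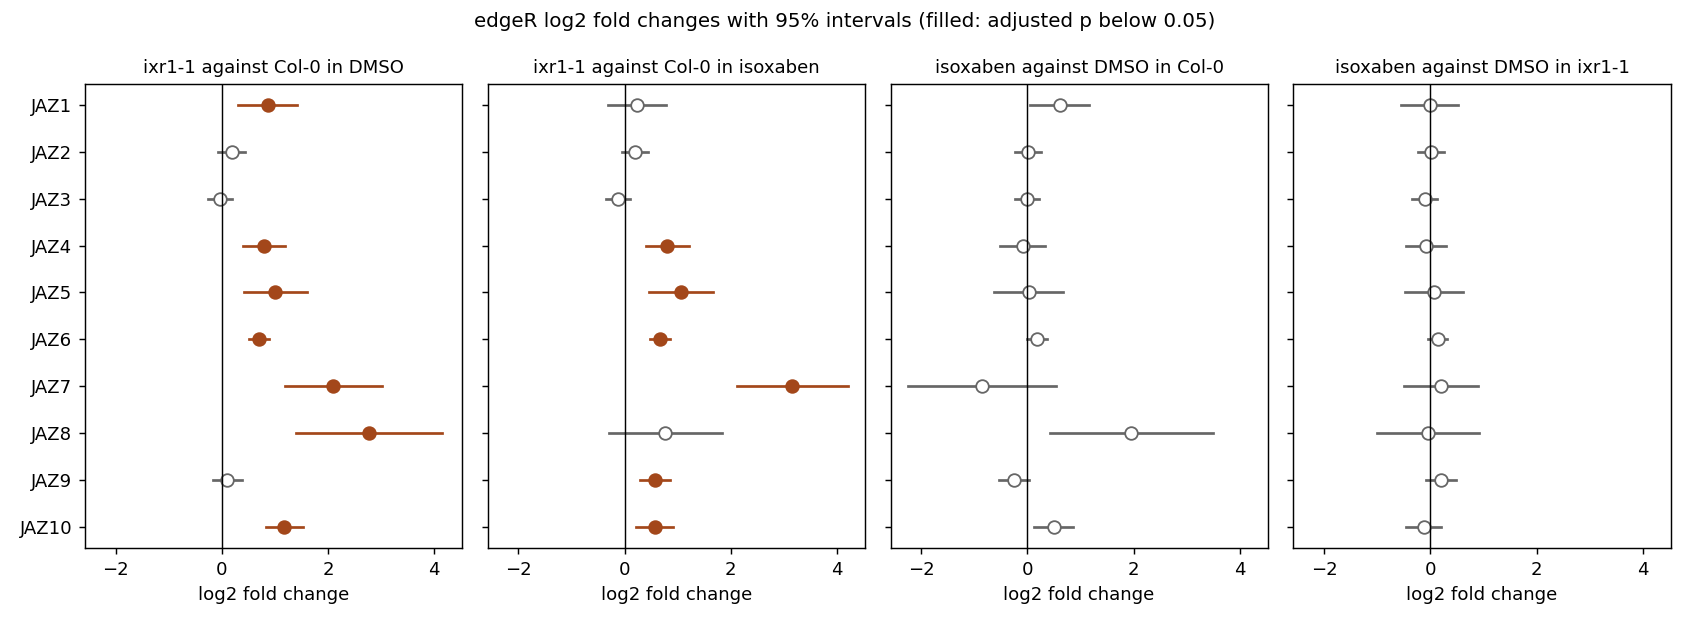
Log2 fold change of each JAZ gene with its 95% interval in 4 comparisons (edgeR); filled points passed an adjusted p of 0.05 and open points did not. In the genotype panels 7 and 6 members lie to the right of 0 and are filled, and in both isoxaben panels all 10 points are open.

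Library profiles were compared over the members. The mean over the 10 genes of the log2 CPM, standardized per gene over the 12 libraries, was -0.53, -0.36 and -1.33 in Col-0 DMSO and -0.40, -0.58 and -0.53 in Col-0 isoxaben. It was 0.27, 0.84 and 0.79 in ixr1-1 DMSO and -0.09, 1.09 and 0.84 in ixr1-1 isoxaben. Library 1 was the lowest of its group in both ixr1-1 groups, and all ixr1-1 libraries lay above all Col-0 libraries. The number of the 10 members above their group mean was 0, 9 and 8 in libraries 1 to 3 of ixr1-1 isoxaben and 1, 7 and 8 in ixr1-1 DMSO. It was 6, 8 and 1 in Col-0 DMSO and 6, 5 and 4 in Col-0 isoxaben. The same share over all tested genes was not computed. The summed seed storage transcripts were also lowest in library 1 of both ixr1-1 groups (219 and 112 CPM), and the cruciferin gene CRC was at 0 in all 6 Col-0 libraries. Beside 9.79% and 6.92% of all tested genes, 10 of the 11 seed storage and oil body genes were higher in ixr1-1 in DMSO and 9 in isoxaben. All 11 passed the filter on low counts only with the ixr1-1 libraries, where they are high, so their calls are not independent of it. These transcripts moved with the genotype difference of the JAZ genes, and their part in it was not tested. Without both ixr1-1 libraries numbered 1, 7 members were called in DMSO and 7 in isoxaben, the latter with JAZ2 added (log2 0.33 ± 0.09, edgeR adjusted p = 0.0234). Fits with libraries left out, this one included, called 2281 to 3798 of all genes in DMSO and 1549 to 2756 in isoxaben. With all 12 libraries these counts were 3509 and 2602.

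**Figure D4:**
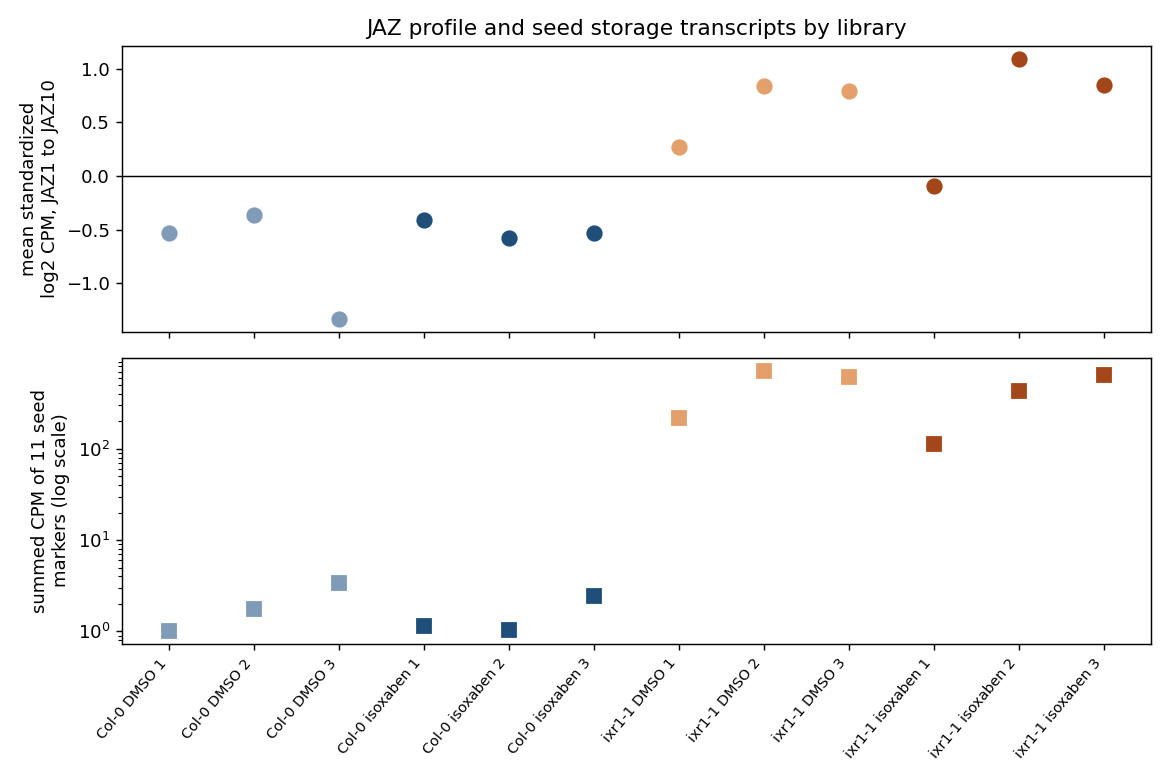
Upper panel, mean standardized log2 CPM of JAZ1 to JAZ10 in each library; lower panel, summed CPM of 11 seed storage and oil body genes in the same libraries (log scale). In both panels all ixr1-1 libraries lie above all Col-0 libraries, and library 1 is the lowest of its group in both ixr1-1 groups.

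The spread between libraries of a group was smallest for JAZ6 and JAZ3 (SD of log2 CPM within groups 0.13 and 0.15) and largest for JAZ5, JAZ8 and JAZ7 (0.40, 0.54 and 0.57). JAZ7 and JAZ8 had the lowest counts. Over the 12 libraries, the genes outside the family whose log2 CPM was most like the mean profile of the 10 members were AT4G16960 (Pearson r = 0.960), AT5G43910 (0.958), AT5G44290 (0.955), AGK2 (AT3G57550, 0.954) and PP2-A5 (AT1G65390, 0.954), out of 18282 candidate genes. These r values describe 12 libraries that share 2 genotypes. A related r, with group means removed, was 0.863, 0.905, 0.837, 0.870 and 0.931 for the same genes. It used the mean of the members' log2 deviations, not standardized per gene, so members with a wide spread such as JAZ7 and JAZ8 weigh more. The genes were picked for their high r over the same libraries, so this r is no independent check of the likeness.

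Other genes of the jasmonate pathway are given list by list. Beside them, 17.2% of all tested genes were called between the genotypes in DMSO and 12.8% in isoxaben. Of JAZ11, JAZ12 and AT3G22275, a locus listed with them that has no symbol in the reference, 0 of 3 passed in any of the 5 comparisons. JAZ12 was at 36.5 to 39.7 CPM in Col-0 DMSO and at 31.9 to 38.7 CPM in ixr1-1 DMSO, and JAZ11 at 8.70 to 10.8 and 9.93 to 12.8 CPM. Of AT3G22275 the log2 fold change between the genotypes in DMSO was 0.88 ± 0.40 (edgeR adjusted p = 0.142). Of 12 partners and core signalling genes, 2 were higher and 2 lower in ixr1-1 in DMSO, with a median log2 fold change of -0.06. JAM2 (0.43) and JAM1 (0.39), bHLH factors that counteract MYC2, were higher, while MYC4 (-0.43), an activator held by JAZ proteins, and HDA19 (-0.18), a histone deacetylase of the TOPLESS complex, were lower. The other 8, among them COI1, MYC2, NINJA and TPL, did not pass. In isoxaben 1 of 12 was higher (JAM1, 0.42) and 1 lower (HDA19, -0.20). The HDA19 call ended under 10 of 21 alternatives in DMSO and 8 of 21 in isoxaben, and those of JAM1, JAM2 and MYC4 under 2 or 3.

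Of 12 genes of jasmonate synthesis, 3 were higher and 1 lower in ixr1-1 in DMSO, with a median of 0.10. Over all tested genes, 9.79% were called higher and 7.42% lower in DMSO, and 6.92% and 5.85% in isoxaben. The lipoxygenase genes LOX4 (1.31 ± 0.20, edgeR adjusted p = 0.000583) and LOX3 (1.00 ± 0.29, edgeR adjusted p = 0.0406), whose enzymes start the pathway in the plastid, were higher. So was OPCL1 (0.53 ± 0.08, edgeR adjusted p = 7.99e-05), the ligase that prepares precursors for side-chain shortening. AOC2 (-0.54 ± 0.12, edgeR adjusted p = 0.00731), an allene oxide cyclase, was lower. LOX4 was at 7.64, 7.38 and 4.82 CPM in Col-0 DMSO and at 12.7, 16.3 and 19.3 CPM in ixr1-1 DMSO, without overlap. In isoxaben 3 were higher, LOX3 (1.19), AOC1 (0.47) and, named after its value was seen, OPCL1 (0.24), and 2 lower, AOC2 (-0.67) and ACX1 (-0.29). The LOX3 call ended under 8 of 21 alternatives in DMSO and 7 of 21 in isoxaben, and the calls of AOC1 and ACX1 under 5 of 21 each. In the treatment comparison in Col-0, LOX4 came nearest to the threshold (0.94 ± 0.20, edgeR adjusted p = 0.0575) and passed under 10 of 22 alternatives. It was at 14.5, 12.9 and 10.5 CPM in Col-0 isoxaben, above all Col-0 DMSO libraries. Its interaction was -1.19 ± 0.28 (edgeR adjusted p = 0.145) and passed with DESeq2 (adjusted p = 0.00682).

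Of 11 genes of jasmonate conjugation and turnover, 10 were tested. For this list and the next, the share of all tested genes called between the genotypes was 17.2% in DMSO and 12.8% in isoxaben. CYP94C1, which oxidizes jasmonoyl-isoleucine, was higher in ixr1-1 in DMSO (1.12 ± 0.17, edgeR adjusted p = 0.000461) and in isoxaben (1.76 ± 0.18, edgeR adjusted p = 3.69e-05). It was at 7.43, 10.5 and 7.23 CPM in Col-0 DMSO and at 15.1, 18.1 and 20.7 CPM in ixr1-1 DMSO, with every mutant library above every wild-type library. The sulfotransferase gene ST2A was lower in DMSO (-0.57, edgeR adjusted p = 0.0482), a call that ended under 11 of 21 alternatives, and AT5G05600, which has no symbol in the reference, was higher in isoxaben (0.93, edgeR adjusted p = 0.0188), a call that ended under 3 of 21. Of 11 jasmonate response genes 8 were tested. In DMSO 2 were higher, the aminotransferase gene TAT3 (1.96 ± 0.40, edgeR adjusted p = 0.00910) and the defensin gene PDF1.2a (5.52 ± 1.57, edgeR adjusted p = 0.0446), and 0 were lower. PDF1.2a was at 0.0682 to 0.141 CPM in Col-0 DMSO and at 8.76, 0.668 and 8.18 CPM in ixr1-1 DMSO, and its call ended under 13 of 20 alternatives. The gene passed the filter on low counts only with the ixr1-1 libraries. In isoxaben 1 was higher, the storage protein gene VSP1 (1.14 ± 0.19, edgeR adjusted p = 0.000700). The calls of LOX4, OPCL1, AOC2, CYP94C1 and TAT3 in DMSO and of AOC2, CYP94C1 and VSP1 in isoxaben held under all alternatives run. In the edgeR fit over all 12 libraries, no gene of these pathway lists passed for isoxaben in Col-0, isoxaben in ixr1-1 or the interaction. In a fit of the Col-0 libraries alone, LOX4 (0.95, edgeR adjusted p = 0.0143) and AT5G05600 (-0.55, edgeR adjusted p = 0.0251) passed for isoxaben in Col-0. Only the gene of each list nearest to the threshold was looked up in that fit, so this is no full account of the lists.

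**Figure D5:**
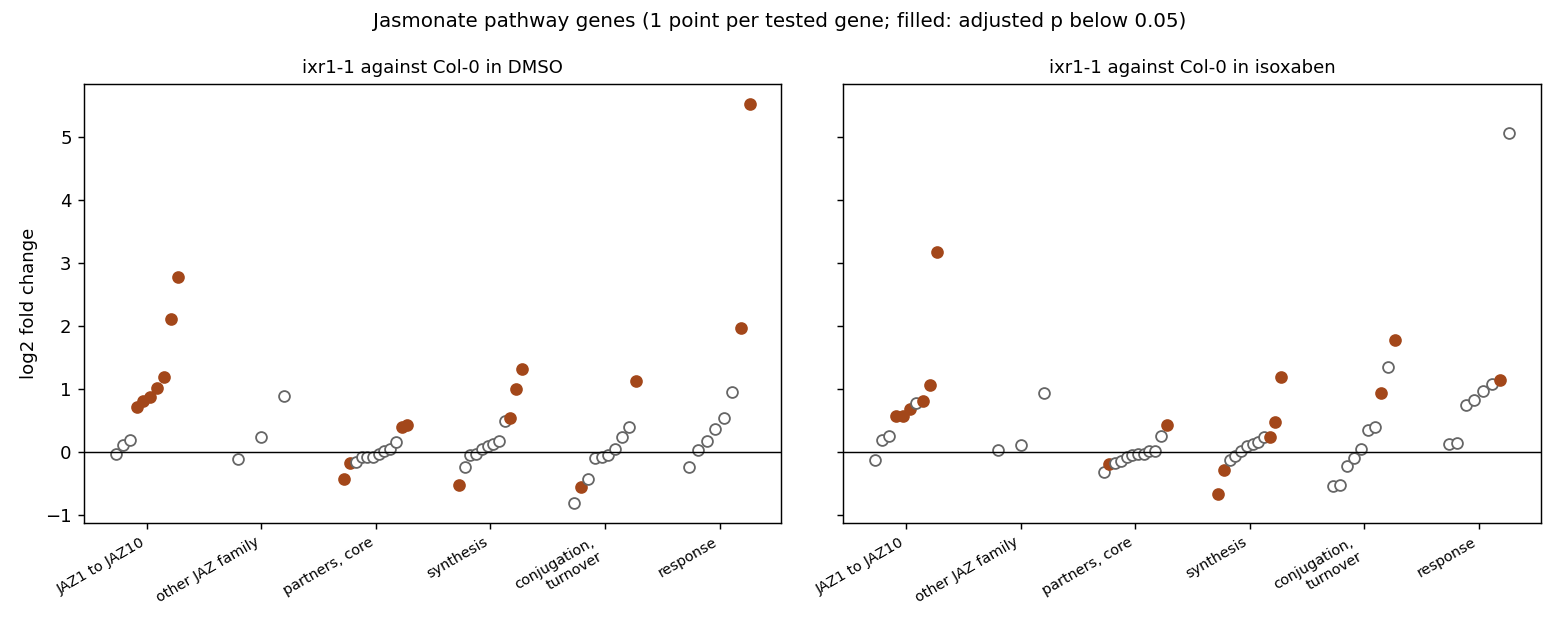
Log2 fold change between ixr1-1 and Col-0 for every tested gene of the jasmonate lists in DMSO (left) and isoxaben (right); each point is a gene, filled where the edgeR adjusted p was below 0.05. JAZ1 to JAZ10 have 7 and 6 filled points, all above 0, while partner and synthesis genes have filled points on both sides of 0.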

How the data were processed

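Raw counts per gene were deposited for each of the 12 libraries, with 33602 genes and no normalization visible, per the file headers and values. Tools listed in the submitters' processing notes are featureCounts 1.4.6, STAR 2.4.1, FastQC 11.1 and bcl2fastq. Genome build, annotation and strand setting were not given in the sources used here. Per the labels' protocols, the mRNA library kit marked strand. No JAZ1 to JAZ10 exon overlaps another gene's exon or has a copy of at least 95% identity (blastn 2.17.0). Of the listed genes, JAZ12, COI1, JAM3, TPL, CASP1 and OLEO1 overlap exons on the opposite strand, whose reads may be mixed in. The green tissue markers CAB1, CAB2 and LHCB2.1 each have a copy of at least 95% identity, so reads of both copies may not be told apart. Gene coordinates are those of the files. Promoters come from the RefSeq annotation of TAIR10.1. There, 30 of 34 gaps between the members' exons had GT at their 5′ and AG at their 3′ end, and 0 of 10 members had the same start and end as in the files.

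Genes were filtered with filterByExpr and scaled by TMM. The test was edgeR's quasi-likelihood test (edgeR 4.0.16, R 4.3.3; functions glmQLFit, robust, and glmQLFTest) with the 4 groups of all 12 libraries in 1 model. P-values were adjusted by Benjamini-Hochberg over the 20379 tested genes in each of 5 comparisons, and 0.05 was the threshold. The SE of a log2 fold change is its size over the root of F, and intervals use the degrees of freedom of F. A chi-square of the counts of replicate pairs, per degree of freedom, was 2.82 to 6.98, so no pair agreed within sampling noise. The fit was also run on simulated counts, with changes set only in genes of at least 1 CPM on average. That run does not cover genes as low as JAZ7 and JAZ8 in Col-0. The members and the 8 gene lists (78 genes) were chosen with earlier results of these data known. Named pathway genes are up to 4 of a list per comparison by adjusted p, or the nearest where none passed, and the most similar genes are the 5 with the highest r and an average log2 CPM of at least 1. Alternatives were DESeq2 size factors, library size alone, other count filters, DESeq2 1.42.0, limma-voom (limma 3.58.1), only the groups compared, replicate blocks and leaving out libraries. Precision at low counts is that of counting, as given for JAZ7 and JAZ8.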

Additional observations from a re-analysis of the deposited data

How the results depend on the processing

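Over JAZ1 to JAZ10, 1056 pairs of a member's comparison and an alternative were computed. In 23 a call ended, in 5 a call appeared and in 0 a called change reversed its sign. The calls of JAZ4, JAZ6, JAZ7 and JAZ10 in DMSO, of JAZ8 in DMSO and of JAZ4, JAZ6 and JAZ7 in isoxaben held under every alternative that tested them; a filter of 1 CPM in 6 libraries left JAZ7 and JAZ8 untested, and fits of only the groups compared left JAZ8 untested in both genotype comparisons and both genes for isoxaben in Col-0. With each library left out in turn, 5 to 7 members were called between the genotypes in DMSO and 3 to 7 in isoxaben, with 3 without library 2 of ixr1-1 isoxaben. Scaling by library size alone moved the median of all genes by up to 0.0686 (log2). For the named pathway genes, 81 of 803 pairs ended a call, 17 gave one and 0 reversed.

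Over all genes, isoxaben in Col-0 called 159 genes, 243 with only the Col-0 libraries in the fit (with 1 member, JAZ1) and 77 to 193 with a library left out. It was lowest without library 3 of Col-0 DMSO, and 79 when library 2 of Col-0 isoxaben was left out. Isoxaben in ixr1-1 called 0 (742 at an unadjusted p under 0.05) and 0 with any library left out. The genotype comparisons called 3509 genes in DMSO (2281 to 3798, lowest without library 2 of ixr1-1 DMSO) and 2602 in isoxaben (1549 to 2756, lowest without library 2 of ixr1-1 isoxaben; 1712 without library 3 of that group, and 1664 and 1570 without library 2 and 3 of Col-0 isoxaben). The interaction called 64 genes, 102 with DESeq2 and 22 to 113 with a library left out, lowest without library 2 of ixr1-1 DMSO and highest without library 2 of ixr1-1 isoxaben. It was 28 without library 3 of Col-0 DMSO, 36 with library 2 of Col-0 isoxaben left out, and 37 and 29 without library 1 and 3 of ixr1-1 isoxaben. The cause of these moves was not tested.

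The replicate numbers were checked for pairing. Deviations from the group means correlated between same-numbered libraries by 0.0300 to 0.205 in Col-0 and 0.0304 to 0.312 in ixr1-1, and 6 of 6 and 4 of 6 libraries correlated best with their own number. The labels tie no number to a flask, so whether libraries of the same number share a flask is unknown. With a replicate block by genotype and number, as if a number marked a divided flask, isoxaben in Col-0 called 367 genes with 1 member, JAZ1 (log2 0.61 ± 0.08, edgeR adjusted p = 0.000201), isoxaben in ixr1-1 called 13 genes, and the interaction called 180 with 1 member, JAZ1 (log2 -0.63 ± 0.11, edgeR adjusted p = 0.00710). Under this block LOX4 (0.94), AT5G05600 (-0.55) and VSP1 (-0.74) also passed for isoxaben in Col-0, and LOX4 for the interaction (-1.18). Of the pathway lists, only the genes named for a comparison were looked up under it. With a replicate block by number, isoxaben in ixr1-1 called 1 gene and the interaction 99. The block by genotype and number could not be fitted for the genotype comparisons, since each of its levels holds a single genotype.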
